A study of Homo sapiens with 9 samples.

Results

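The genes described here encode metallothioneins and zinc transporters, with the metal-sensing transcription factor that links them. They are MT1E, MT1F, MT1G, MT1X, MT2A, MTF1, SLC30A1, SLC30A10, SLC39A4 and SLC39A14, the rows of the count table with these symbols, 10 of 60591 symbols in all. Their mRNA was measured in undifferentiated Caco-2 (uCaco-2), proliferating cells of a human colon adenocarcinoma line that serves as a model of the intestinal epithelium. The cells spent 24 h with 300 μM cobalt (II) chloride (CoCl2), with 5 μM of an oxyquinoline derivative (OD) or with fresh medium (control). All 3 groups received 0.5% DMSO, and each had 3 biological replicates. Both compounds were used to block the prolyl hydroxylases that mark hypoxia-inducible factor (HIF) for degradation, CoCl2 by taking the place of iron and OD by binding the active centre.

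Metallothioneins are small cysteine-rich proteins that bind zinc and copper, buffer the free metal in the cell and sequester toxic metals such as cadmium. MTF1 is a zinc-finger protein that senses free zinc, binds metal response elements (MREs) in promoters and drives transcription of metallothionein genes and of the zinc exporter gene SLC30A1. Proteins of the SLC30 family carry zinc out of the cytosol, to the outside or into organelles, and proteins of the SLC39 family carry zinc and other divalent metals into it. In the intestine SLC39A4 is the importer of dietary zinc on the luminal side, while SLC39A14 carries zinc, iron and manganese.

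Levels are CPM, the counts of a gene relative to the size of its library, scaled for library composition by the TMM factors of edgeR. These factors were 0.770 to 0.795 with CoCl2, 1.11 to 1.12 in control cells and 1.14 to 1.15 with OD, for totals of 15998136 to 24209427 counts per library. A gene was called when the quasi-likelihood test of edgeR, fitted over 15944 genes and 9 libraries, gave a p below 0.05 after Benjamini-Hochberg adjustment together with a log2 change larger than 1 in either direction. Of the 10 genes, 7 passed the expression filter, each with all 9 libraries over its cutoff of 0.547 CPM, and MT1E, MT1G and SLC30A10 had too few counts to be tested. Of 8 epithelial markers, KRT8, KRT18, CDH1, EPCAM and CDX2 were well above zero in every library and CDX1 had no count, while the leukocyte markers PTPRC, CD3E and CD68 stayed at or under 0.319 CPM. Among fibroblast markers COL1A2 and DCN were at or under 0.105 CPM, while COL1A1 had 9.33 to 22.4 CPM and COL3A1 3.81 to 9.60, and the endothelial markers PECAM1 and VWF had 0.294 to 2.498 CPM. VIL1 and KRT20, markers of differentiated enterocytes, had log2 fold changes of -2.45 and -1.44 with CoCl2 and -0.43 and 0.36 with OD, and the part of these marker changes in the results below was not tested. Of the 6 hypoxia genes examined, NDRG1, PDK1, ANKRD37 and VEGFA were called higher with each treatment. EGLN3 was called higher with CoCl2 (log2 fold change 1.27) and was not called with OD (0.35), and CA9 had too few counts to be tested. A change in the mix of cell states and a change of RNA per cell cannot be told apart in such bulk libraries.

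With CoCl2, 4 of the 7 tested genes were called higher than in control cells and 1 lower, beside 19.9% of all tested genes called higher and 23.4% called lower. Over all tested genes this was 3167 higher and 3724 lower, a split that became 1833 and 5839 with library size alone. MT2A, MTF1, SLC30A1 and MT1X rose and SLC39A4 fell, and this fall lay just past the fold threshold. With OD, MT2A alone was called higher and no gene was called lower, beside 9.09% and 4.16% of all tested genes. In the direct comparison, MTF1, SLC30A1 and MT2A were called higher with CoCl2 than with OD and SLC39A4 lower, beside 17.5% and 23.8% of all tested genes (2790 and 3790 genes, or 1351 and 6026 with library size alone). The median log2 fold change of the 7 genes was 1.70 with CoCl2 and 0.62 with OD, against -0.049 and -0.011 over all tested genes.

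**Figure D1:**
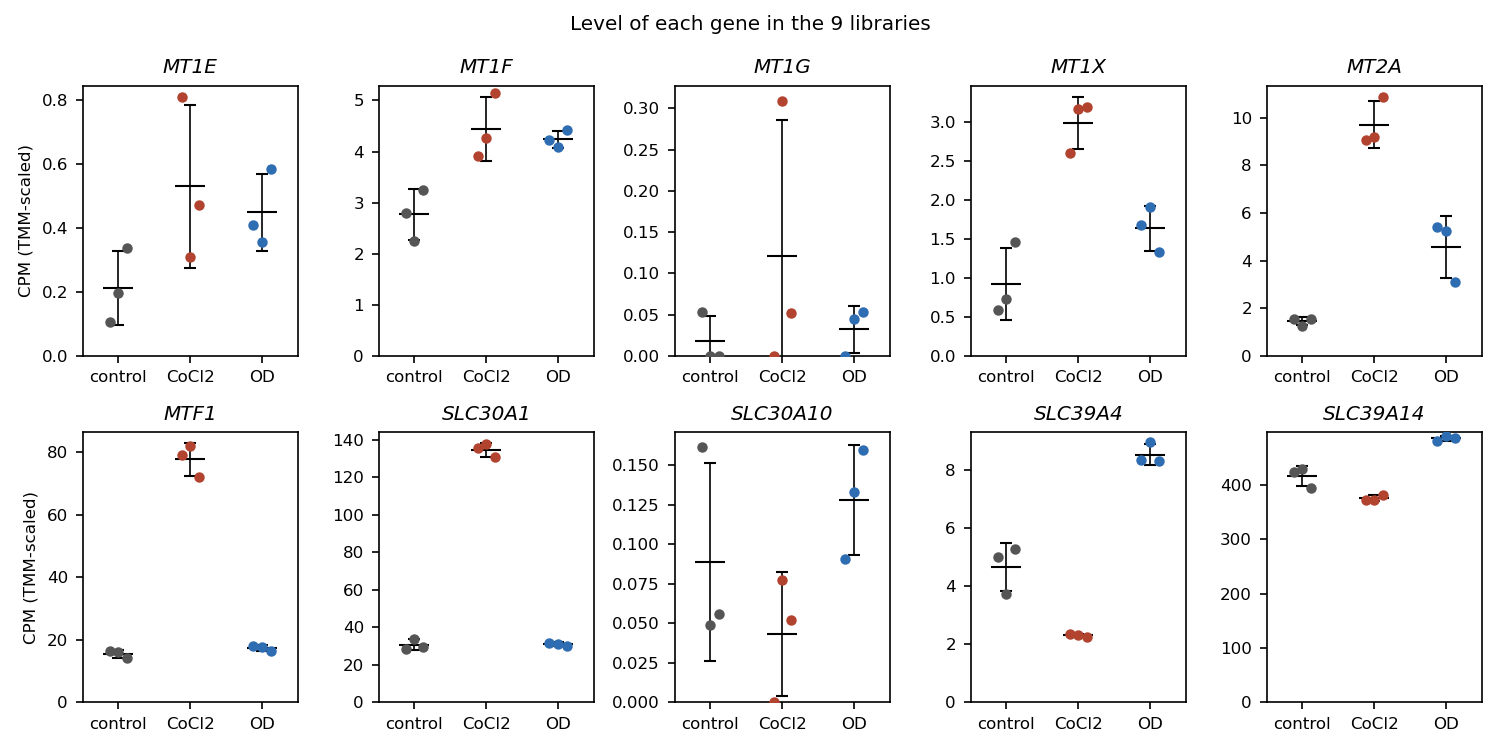
Level of each of the 10 genes in the 9 libraries, in TMM-scaled CPM on an axis that starts at 0, with 1 point per library and the mean ± SD of 3 replicates in black (bars are cut at 0). MTF1 and SLC30A1 stand apart only in the CoCl2 libraries, MT2A is higher in both treatments, and SLC39A4 is lowest with CoCl2 and highest with OD.

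The promoter sequences of the 4 genes called higher with CoCl2 are shown because MTF1 acts through MREs, and because these genes differed in their response to OD. The sequences are from RefSeq (GRCh38.p14), which listed 5 of the 10 genes in the table used here; MT1E, MT1F, MT1G, SLC39A4 and SLC39A14 were not among them. Each line gives the 250 bases before the annotated start, 5′ to 3′ on the strand of the gene, with matches to the MRE core in capitals.
MT2A, chr16:56608334-56608583, plus strand: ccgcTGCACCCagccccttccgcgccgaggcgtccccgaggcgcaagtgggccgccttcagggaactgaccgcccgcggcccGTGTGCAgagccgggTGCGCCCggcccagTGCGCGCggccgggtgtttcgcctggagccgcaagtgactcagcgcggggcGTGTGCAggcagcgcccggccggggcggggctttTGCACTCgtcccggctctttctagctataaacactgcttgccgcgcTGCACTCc
MT1X, chr16:56682220-56682469, plus strand: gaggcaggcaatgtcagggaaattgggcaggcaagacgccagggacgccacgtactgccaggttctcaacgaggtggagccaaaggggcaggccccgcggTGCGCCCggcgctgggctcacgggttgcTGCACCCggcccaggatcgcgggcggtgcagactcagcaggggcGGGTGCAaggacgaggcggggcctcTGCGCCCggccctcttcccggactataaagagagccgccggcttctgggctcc
SLC30A1, chr1:211579162-211579411, minus strand: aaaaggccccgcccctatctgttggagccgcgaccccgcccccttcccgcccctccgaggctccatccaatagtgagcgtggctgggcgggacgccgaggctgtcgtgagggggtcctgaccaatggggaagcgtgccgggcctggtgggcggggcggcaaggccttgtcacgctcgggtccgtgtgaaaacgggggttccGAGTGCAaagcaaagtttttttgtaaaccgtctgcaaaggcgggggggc
MTF1, chr1:37859593-37859842, minus strand: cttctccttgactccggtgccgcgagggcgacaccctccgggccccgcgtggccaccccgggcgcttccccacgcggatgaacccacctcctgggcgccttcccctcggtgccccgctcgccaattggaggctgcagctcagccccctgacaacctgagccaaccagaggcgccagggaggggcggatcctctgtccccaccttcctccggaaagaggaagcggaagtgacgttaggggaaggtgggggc

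The MRE core was searched as TGCACNC and TGCGCNC on both strands, within 300 bases that reach from 250 before the start to 50 after it. MT2A held 8 matches, of which 7 lay upstream of the start, MT1X held 4, all upstream, and SLC30A1 held 2, of which 1 lay upstream. MTF1 and SLC30A10 held no match in these windows. Over all 35116 promoters of this length, 29.6% held at least 1 match, 8.6% at least 2 and 2.3% at least 3. The core of the HIF-binding element, searched as ACGTG and GCGTG on both strands, had 3 matches each for MT2A, MT1X and SLC30A1 and 2 for MTF1. At least 1 such match was found in 48.4% of all promoters, at least 2 in 23.1% and at least 3 in 10.1%. In MT2A a GCGTG match that begins 90 bases before the start overlaps the MRE match that begins 88 bases before it. The matches describe the letters in these windows and do not show binding.

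MT2A, the metallothionein with the most reads in the CoCl2 libraries, lies on chromosome 16 of GRCh38 from 56608584 to 56609497, on the plus strand. Its level was 1.56, 1.27 and 1.57 CPM in control replicates 1 to 3, from 26 to 29 counts each. With CoCl2 it was 9.08, 9.21 and 10.9 CPM (119 to 207 counts), above every other library. With OD it was 5.40, 5.24 and 3.09 CPM (58 to 119 counts), so that OD replicate 3 lay below the other OD libraries and still above all control libraries. Against control cells MT2A was higher by 2.74 on the log2 scale with CoCl2 (standard error 0.171, adjusted p = 7.39e-22) and by 1.66 with OD (standard error 0.190, adjusted p = 2.63e-11). The rise was larger with CoCl2 by 1.08 on the log2 scale (standard error 0.131, adjusted p = 9.08e-11). This difference dropped below the fold threshold without OD replicate 3 (0.87), without CoCl2 replicate 3 (0.98), with upper-quartile factors (0.94) and with library size alone (0.53), each time with an adjusted p under 0.05. MT2A had no other gene on its exons and no 75-base stretch of its transcript in transcripts of other genes.

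MT1X, a metallothionein at 56682470 to 56684196 of the same chromosome, had 0.592, 0.735 and 1.46 CPM in control cells, with control replicate 3 standing above the others. It had 2.61, 3.17 and 3.20 CPM with CoCl2, all above the control libraries. With OD it had 1.68, 1.91 and 1.33 CPM, and OD replicate 3 fell within the range of the control libraries. This gave a log2 fold change of 1.70 for CoCl2 (standard error 0.243, adjusted p = 4.69e-09), which was called. With OD it was 0.85 (standard error 0.262, adjusted p = 0.00365), under the fold threshold, and 1.30 without control replicate 3, which made it a call. CoCl2 and OD differed by 0.85 for MT1X (adjusted p = 0.000205), also under the fold threshold. With library size alone this difference was 0.31 (adjusted p = 0.173). Counts of MT1X are less certain than those of MT2A, since 36.1% of the 75-base stretches of its transcript also occur in transcripts of MT1G, of the pseudogene MT1XP1 or of a gene that overlaps 18.6% of its exonic bases.

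MT1F, at 56657731 to 56660698, responded least among the 3 metallothioneins with enough counts. It had 2.80, 2.26 and 3.25 CPM in control cells, 3.92, 4.26 and 5.14 with CoCl2 and 4.22, 4.08 and 4.42 with OD. Both treated groups lay above all control libraries and overlapped each other. MT1F had a log2 fold change of 0.70 with CoCl2 (95% interval 0.38 to 1.03, adjusted p = 9.18e-05) and 0.62 with OD (95% interval 0.31 to 0.94, adjusted p = 0.000427), both under the fold threshold. Between CoCl2 and OD the difference was 0.082 (95% interval -0.21 to 0.38, adjusted p = 0.604), and its sign depended on the scaling, with -0.46 when library size alone was used. For MT1F with CoCl2, that scaling left 0.20 (adjusted p = 0.254).

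MT1E and MT1G were too sparse for the test. MT1E, at 56625475 to 56627112, had 2, 4 and 6 counts in control cells, 13, 4 and 9 with CoCl2 and 9, 8 and 11 with OD. The CoCl2 libraries overlapped the control libraries in counts. Over the summed counts, 26 with CoCl2 and 28 with OD against 12 in control cells, the scaled ratio to control was 2.56 with CoCl2 (95% exact interval 1.25 to 5.57) and 2.09 with OD (1.03 to 4.52), where the intervals cover counting error only. In a fit without a count filter MT1E had a log2 fold change of 1.26 with CoCl2 (adjusted p = 0.0397) and 1.05 with OD (adjusted p = 0.134). MT1G, at 56666730 to 56668065 on the minus strand, had 1, 0 and 0 counts in control cells, 0, 4 and 1 with CoCl2 and 0, 1 and 1 with OD, and no difference was detectable at this depth. The scaled ratio of its 5 counts with CoCl2 to 1 count in control cells was 5.91, with an interval from 0.661 to 279.5.

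Of 11 metallothionein genes, these 5 included, 3 were tested. MT1A had 1 to 5 counts per library in control cells, 0 to 5 with CoCl2 and 8 to 17 with OD, so that its OD libraries lay above all others. MT1B and MT4 had no count in any library, and MT1H, MT1M and MT3 had at most 2. Summed over the 11 genes, control libraries had 92 to 120 counts, CoCl2 libraries 225 to 383 and OD libraries 187 to 279. For control cells the summed level came to 5.56 ± 1.12 CPM (SD, n = 3), for CoCl2 to 18.03 ± 1.82 and for OD to 11.5 ± 1.37, which is 3.24-fold and 2.08-fold the control level. The groups did not overlap in this TMM-scaled sum. The separation of CoCl2 from OD depended on the scaling, since their log2 difference of 0.65 was 0.10 with library size alone.

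The make-up of the metallothionein reads differed between groups. MT1F took 48.3% to 51.5% of them in control cells, 23.6% to 25.6% with CoCl2 and 33.0% to 44.4% with OD. MT2A took 23.3% to 28.7% in control cells, 52.9% to 54.7% with CoCl2 and 31.0% to 44.1% with OD. MT1F thus had the largest share in all control libraries and MT2A in all CoCl2 libraries, while OD replicate 3 kept a larger share for MT1F. MT1X took 10.9% to 21.7% over the 9 libraries, in groups that overlapped. These shares are counts of reads and were not tested.

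**Figure D2:**
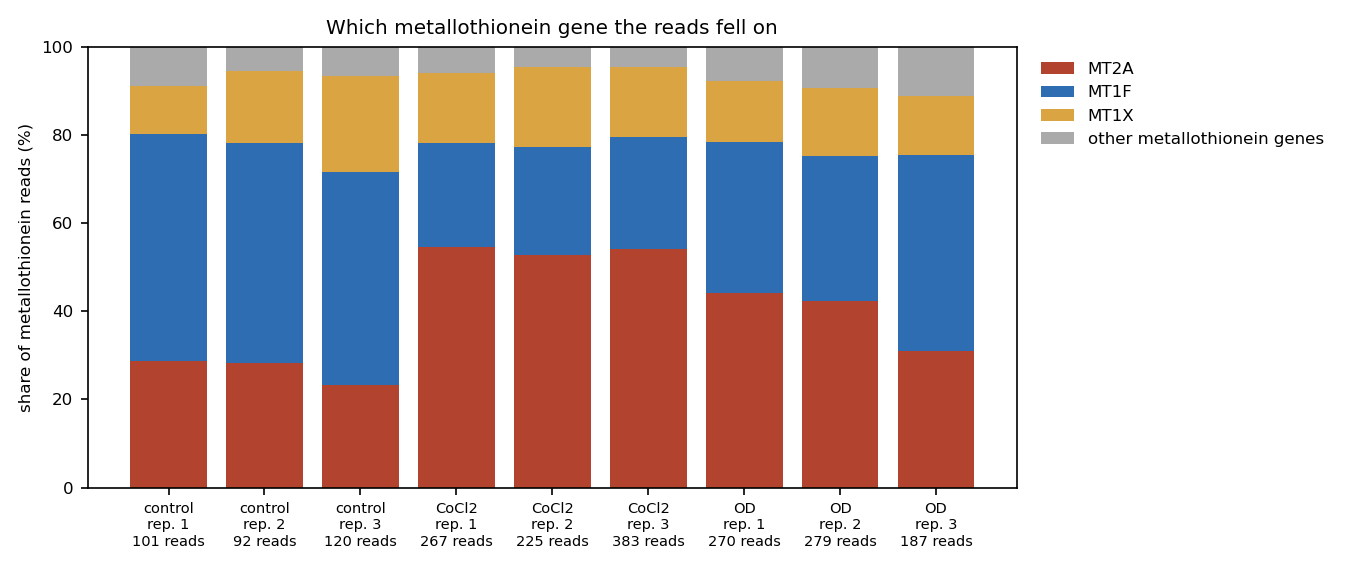
Share of the reads on 11 metallothionein genes that fell on MT2A, MT1F, MT1X and the rest, in percent, with 1 stacked bar per library and its number of metallothionein reads under it. The MT2A part of the bar is 23.3% to 28.7% in control libraries and 52.9% to 54.7% in CoCl2 libraries.

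MTF1, which encodes the zinc-sensing factor, is found on chromosome 1, minus strand, at 37809574 to 37859592. It had 16.4, 16.1 and 14.2 CPM in control cells, 79.1, 82.2 and 72.05 with CoCl2 and 18.1, 17.6 and 16.4 with OD. The CoCl2 libraries stood far above the other 6, and the OD libraries lay close above the control libraries. MTF1 rose by 2.32 on the log2 scale with CoCl2 (standard error 0.067, adjusted p = 2.59e-40), to a level 4.98-fold that of control cells. With OD it was 0.16 (95% interval 0.0047 to 0.32, adjusted p = 0.065), and the difference between the treatments was 2.15 (standard error 0.065, adjusted p = 2.27e-39). With library size alone the rise with CoCl2 was 1.81 and was still called.

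SLC30A1 encodes the exporter that carries zinc across the plasma membrane out of the cell, and its gene is at 211571568 to 211579161 on chromosome 1, minus strand. Its level was 28.7, 33.97 and 29.7 CPM in control cells, 135, 138 and 130.5 with CoCl2 and 31.9, 31.2 and 30.2 with OD. The OD libraries lay within the range of the control libraries and the CoCl2 libraries far above it. SLC30A1 rose by 2.12 on the log2 scale with CoCl2 (standard error 0.056, adjusted p = 1.87e-42) and had 0.013 with OD (95% interval -0.11 to 0.14, adjusted p = 0.867). The difference between the treatments was 2.11 (standard error 0.055, adjusted p = 1.32e-42). The ratio of SLC30A1 to control was therefore 4.36 with CoCl2, and the interval with OD leaves room for a change of at most 0.14 on the log2 scale.

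SLC30A10, a transporter of manganese in this family, lies on chromosome 1 from 219685427 to 219959018 and had 3, 1 and 1 counts in control cells, 0, 1 and 1 with CoCl2 and 2, 3 and 3 with OD. All 9 libraries were at or under 3 counts, so that no fold change is given and no difference was detectable at this depth.

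Of 10 SLC30 exporter genes, 8 were tested. With CoCl2, SLC30A1 and SLC30A7 were called higher and SLC30A2 lower, 2 and 1 of 8 genes beside 19.9% and 23.4% of all tested genes, so that the counts say nothing particular about the exporters. SLC30A7, which loads zinc into the early secretory pathway, had 8.72 to 12.8 CPM in control cells and 26.8 to 31.9 with CoCl2, with a log2 fold change of 1.47 (adjusted p = 1.36e-17). It was 0.96 with library size alone, below the threshold. SLC30A2, a vesicular exporter known for its role in zinc secretion into milk, had 45 to 67 counts in control libraries and 5 to 21 with CoCl2, with a log2 fold change of -2.10 (adjusted p = 3.81e-10) that was -2.75 without CoCl2 replicate 3. With OD it had -0.23 (adjusted p = 0.297).

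With OD, 2 of the 8 exporters were called, both higher, beside 9.09% of all tested genes. SLC30A3, which fills synaptic vesicles with zinc in neurons, had 19 to 24 counts in control libraries, 73 to 97 with OD and 6 to 18 with CoCl2, and rose with OD by 1.85 (adjusted p = 2.03e-12). SLC30A4, an exporter into endosomal vesicles, had 7 to 9 counts in control libraries, 20 to 33 with OD and 7 to 10 with CoCl2, and rose with OD by 1.55 (adjusted p = 2.98e-05). SLC30A4 passed the expression filter through its OD libraries alone, so a difference from the other groups was a condition of its being tested. In the direct comparison SLC30A3 and SLC30A4 were lower with CoCl2, by log2 differences of -2.34 and -1.31. SLC30A9 had -0.996 with CoCl2 (adjusted p = 1.54e-22), which missed the fold threshold, and was called lower with upper-quartile factors and with library size alone. SLC30A5 and SLC30A6 had log2 fold changes between -0.24 and 0.054 in both comparisons with control, and SLC30A8 had no count in any library. The median of the 8 genes was -0.093 with CoCl2 and -0.014 with OD, close to those of all tested genes.

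SLC39A4, the luminal zinc importer, lay below control cells with CoCl2 and above them with OD. The gene is at 144409742 to 144416844 on chromosome 8, minus strand. Its level was 5.00, 3.73 and 5.27 CPM in control cells, 2.36, 2.32 and 2.25 with CoCl2 and 8.36, 8.97 and 8.31 with OD, without overlap between any groups. Counts were 76 to 94 per control library, 30 to 43 with CoCl2 and 156 to 202 with OD. With CoCl2 its log2 fold change was -1.003 (standard error 0.167, adjusted p = 2.04e-07). This call was lost in 6 of the 19 refits by another setting, among them RLE factors (-0.95) and the fits without control replicate 1 (-0.95), control replicate 3 (-0.92) or CoCl2 replicate 3 (-0.98), always with an adjusted p under 0.05. It was also lost with glmTreat, which tests against the fold threshold itself. With OD the log2 fold change was 0.88 (standard error 0.120, adjusted p = 2.51e-09), under the fold threshold. CoCl2 and OD differed by -1.89 (standard error 0.146, adjusted p = 1.48e-18), a difference that was called in all 19 refits.

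SLC39A14, an importer of zinc, iron and manganese on the plus strand of chromosome 8 from 22367278 to 22434129, was the most abundant of the 10 genes. It had 424, 430.04 and 395 CPM in control cells, 373, 373 and 382 with CoCl2 and 481, 490.4 and 487 with OD. The groups did not overlap, and the changes were small. SLC39A14 had a log2 fold change of -0.15 with CoCl2 (95% interval -0.23 to -0.067, adjusted p = 0.000671) and 0.22 with OD (95% interval 0.14 to 0.30, adjusted p = 1.19e-06), and the treatments differed by -0.37 (adjusted p = 5.52e-13). None of these passed the fold threshold. With library size alone the value with CoCl2 was -0.65, where the median over all tested genes was itself -0.55.

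**Figure D3:**
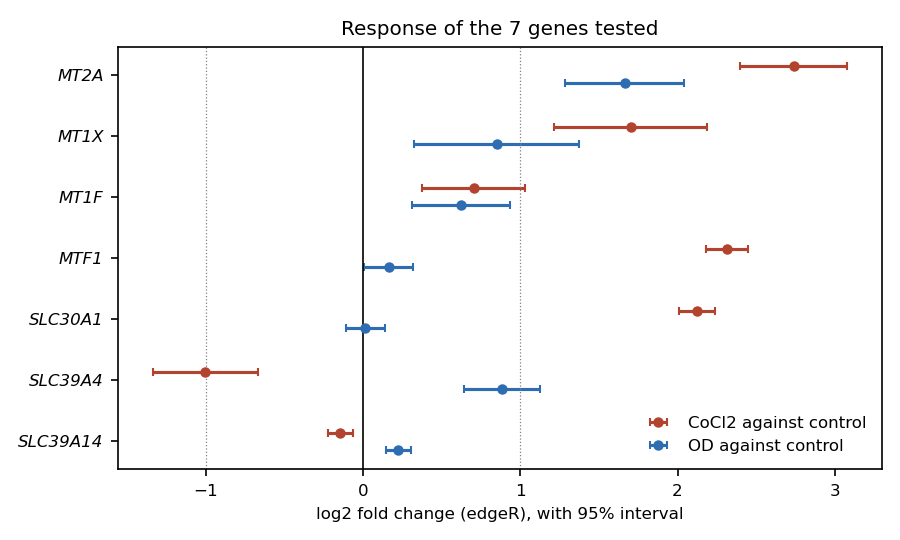
Log2 fold change of the 7 tested genes against control cells, with 95% intervals from edgeR, for CoCl2 in red and OD in blue (dotted lines at -1 and 1 mark the fold threshold). The intervals of MTF1 and SLC30A1 lie above 2 with CoCl2 and between -0.11 and 0.32 with OD, and SLC39A4 lies on opposite sides of 0.

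Of 14 SLC39 genes, 13 were tested, and 2 were called higher and 4 lower with CoCl2, beside 19.9% and 23.4% of all tested genes. The counts were 2 and 2 with RLE factors and 0 and 6 with library size alone, where SLC39A10 and SLC39A11 became calls. SLC39A7, which releases zinc from the endoplasmic reticulum and Golgi, had 208 to 237 CPM in control cells and 514 to 549 with CoCl2, a log2 fold change of 1.26 (adjusted p = 1.29e-36). SLC39A9, another importer of the secretory pathway, had 90.8 to 101 CPM in control cells and 216 to 225 with CoCl2, a log2 fold change of 1.21 (adjusted p = 3.98e-34). Both calls were lost with library size alone, at 0.76 and 0.70.

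The genes called lower with CoCl2 were SLC39A13, SLC39A8, SLC39A4 and SLC39A5. SLC39A13, a transporter of the secretory pathway needed in connective tissue, had 21.1 to 22.8 CPM in control cells and 6.91 to 8.29 with CoCl2, a log2 fold change of -1.53. SLC39A8, an importer of zinc and manganese at the plasma membrane, had -1.31. SLC39A5, a basolateral zinc importer of enterocytes, had -1.005, and its call was lost with RLE factors (-0.95), with DESeq2 on 9 libraries (-0.99) and without control replicate 1 (-0.95), CoCl2 replicate 1 (-0.99) or CoCl2 replicate 3 (-0.98). SLC39A4, SLC39A5, SLC39A8 and SLC39A13 had positive log2 fold changes with OD, from 0.24 to 0.88, all under the threshold. All 4 were called lower with CoCl2 than with OD, by -1.25 to -1.93, but they were picked by their fall with CoCl2. Of all 13 tested SLC39 genes, 5 were called lower with CoCl2 than with OD and 1 higher, beside 23.8% and 17.5% of all tested genes. Besides the 4 genes above, the lower call was SLC39A2. That gene passed the expression filter through its OD libraries alone, so a higher level with OD was a condition of its being tested.

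With OD only SLC39A2, an importer at the cell surface, was called among the 13 tested SLC39 genes, beside 9.09% of all tested genes called higher. It had 3 to 6 counts in control libraries, 1 to 4 with CoCl2 and 40 to 46 with OD, and its log2 fold change with OD was 3.20 (standard error 0.342, adjusted p = 1.4e-12). It too passed the expression filter through its OD libraries alone. SLC39A10, which MTF1 is known to repress, had -0.74 with CoCl2 and -0.63 with OD, with adjusted p of 2.01e-15 and 3.32e-13, and was called in neither with TMM factors. The level of SLC39A10 was 42.2 to 49.8 CPM in control cells, 25.9 to 30.2 with CoCl2 and 27.7 to 31.7 with OD. SLC39A12 had 2 counts over all libraries.

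**Figure D4:**
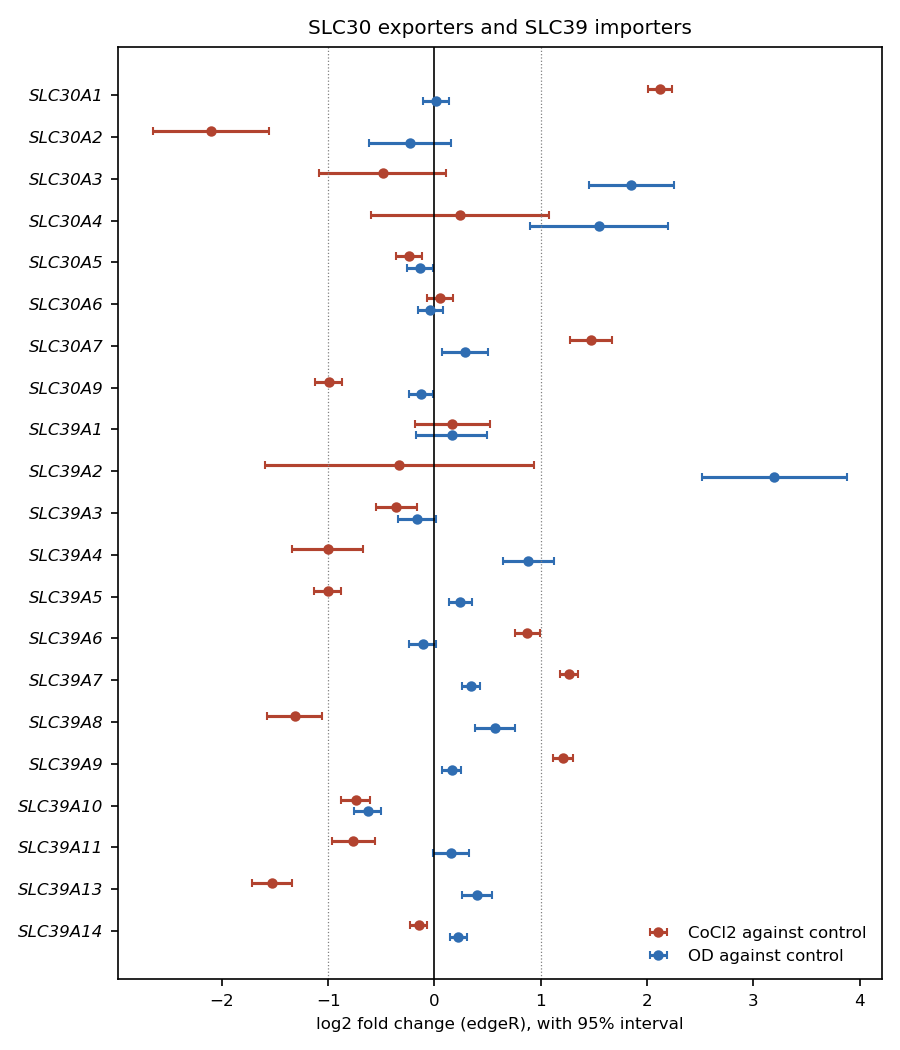
Log2 fold change against control cells of the 8 tested SLC30 and 13 tested SLC39 genes, with 95% intervals, for CoCl2 in red and OD in blue (dotted lines at -1 and 1). SLC30A1, SLC30A7, SLC39A7 and SLC39A9 lie above 1 with CoCl2, and SLC30A3, SLC30A4 and SLC39A2 lie above 1 with OD.

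Per kilobase of the canonical transcript, levels in control cells ran in the order SLC39A14 at 89.3 CPM per kb, MT1F at 6.51, SLC30A1 at 5.22, MT2A at 3.66, MT1X at 2.30, SLC39A4 at 2.20, MTF1 at 1.96, MT1E at 0.286, MT1G at 0.0437 and SLC30A10 at 0.0135. MT1F overlapped SLC30A1, and MT1X overlapped MT2A, SLC39A4 and MTF1. SLC39A4 also overlapped MTF1, and MT1G overlapped SLC30A10, so that these neighbours did not differ beyond their spread. With CoCl2, MT2A at 24.2 CPM per kb and SLC30A1 at 22.8 came next after SLC39A14 at 80.6, and overlapped each other. With OD, MT2A at 11.4 and MT1F at 9.98 followed SLC39A14 at 104.2, also with overlap. The order of the metallothioneins against the other genes depended on the length used, since all annotated exons of MT1F together span 1852 bases and its canonical transcript 425. Over all annotated exons the control levels of MT2A, MT1F and MT1X were 1.61, 1.49 and 0.538 CPM per kb, against 5.22 for SLC30A1 and 1.95 for MTF1.

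The genes with the pattern most like that of SLC30A1 and of MT2A were looked for among the 13398 genes whose mean level reached 1 CPM. Likeness was the root mean square difference over the 9 libraries in log2 CPM relative to the control mean. For SLC30A1 the nearest were SIRT7, NFKBIZ, WDR44, EXOC8 and ZNF408, at differences of 0.077 to 0.093. They had log2 fold changes of 2.07 to 2.23 with CoCl2 and of -0.051 to 0.13 with OD. For MT2A the nearest were RNF122, PEX11A, ABTB2, MICALL2 and MXD4, at differences of 0.200 to 0.221. Their log2 fold changes were 2.23 to 2.76 with CoCl2 and 1.30 to 1.90 with OD. These values describe the pattern in 9 libraries and say nothing of shared control.

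The spread of replicates was set beside the median of genes of like level in each of the 3 groups. In control cells each of the 7 tested genes lay above that median, among them SLC30A1 with an SD of 0.127 against 0.059 and MT2A with 0.126 against 0.121. With CoCl2 and with OD some of the 7 lay above it and others below. How often other genes lay above the median in control cells was not counted. The SD of log2 CPM was 0.444 for MT1X in control cells and 0.403 for MT2A with OD, where genes within 0.5 of the same mean on the log2 scale had medians of 0.171 and 0.112. With CoCl2 the SD of MT2A was 0.136 against a median of 0.153, and that of SLC30A1 was 0.040 against 0.060. In exact permutation tests of log2 CPM over 3 against 3 libraries, the smallest value this design allows is p = 0.1. All 7 tested genes with CoCl2 and 5 of 7 with OD had it, so that it does not set the called genes apart. The share of all tested genes at this value was not counted, so that these counts show nothing particular about the 7 genes. In the same exact permutation tests MT1X and SLC30A1 with OD had p = 0.2 and 0.9.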

How the data were processed

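RNA was sequenced from 9 libraries of uCaco-2, 3 per group, as stranded poly(A)-selected libraries with single-end 75-nucleotide reads. The authors checked quality with FastQC 0.11.9, trimmed adapters with cutadapt 2.10, mapped reads with STAR 2.7.5b and deposited raw counts per gene symbol of GENCODE release 34 on GRCh38. The counting tool, its strand setting and its treatment of reads with several matches are not given in the sources used here. Because metallothionein genes are near-identical in part, reads may have been lost or split between them. The number of sample columns not used was 0.

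TMM factors, filterByExpr, a robust quasi-likelihood fit over 9 libraries and Benjamini-Hochberg adjustment over 15944 genes came from edgeR 4.0.16 in R 4.3.3. DESeq2 1.42.0 served as an alternative. Standard errors were taken from the log2 fold change and its F statistic. Permutation tests were two-sided and used log2(CPM + 0.5). Steps were tested on simulated data. Groups were taken from the sample titles. The titles do not say whether equal replicate numbers mark paired libraries, and the main fit did not pair them. Deviations of same-numbered libraries correlated at -0.018 to 0.067 over all tested genes. This gave no sign of pairing but cannot exclude it, since counting noise of many genes enters the value.

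Coordinates, exons and transcript sequences came from GENCODE release 44 on GRCh38, and promoters from RefSeq. The 10 genes and the gene lists were chosen with earlier results of these data known. Named besides the 10 genes were list members and, for SLC30A1 and MT2A, the 5 nearest genes outside the lists.

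The alternatives were the 6 libraries of a comparison alone, DESeq2 on 9 or 6 libraries, factors by RLE or by the upper quartile, scaling by library size alone, omission of the count filter, a mean of at least 10 counts, the replicate number as a block, each library left out in turn, thinning to the depth of the smallest library, glmTreat, and calls by adjusted p without a fold threshold.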

Additional observations from a re-analysis of the deposited data

How the results depend on the processing

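The 5, 1 and 4 of the 10 genes called with CoCl2, with OD and between the treatments were 5, 1 and 4 with the replicate number as a block. With OD the number was 5 by the adjusted p alone and 1 to 3 when each library was left out in turn, with 3 only without control replicate 3. Of the 7 tested genes only MT2A and MT1X were calls in that fit, so this number includes a gene outside the 7. The expression filter was applied anew with each library left out, so the genes tested could differ from those of the main fit. Over 21 alternatives the number with CoCl2 was 4 to 7 and between the treatments 3 to 6. Of 399 refitted values of the 7 tested genes, 381 kept their direction and their side of the threshold. MT1F between CoCl2 and OD turned to -0.46 with library size alone and to -0.0495 with upper-quartile factors, and ran from -0.054 to 0.18 with libraries left out. SLC30A1 with OD was -0.002 on thinned counts and ran from -0.022 to 0.091 with libraries left out. SLC30A4 with CoCl2 turned to -0.26 with library size alone and -0.12 on thinned counts, and SLC31A1 and SLC31A2 between the treatments turned to -0.35 and -0.064 with library size alone. SLC39A2 with CoCl2 ran from -0.59 to 0.0063 with libraries left out. The summed metallothionein level was higher by 1.71 with CoCl2 on the log2 scale, and by 1.21 with library size alone, and its difference between the treatments of 0.65 became 0.10. Library size alone moved the median over all tested genes with CoCl2 from -0.049 to -0.55. Over all tested genes, 6891, 2113 and 6580 calls became 13260, 10466 and 13311 by the adjusted p alone, and glmTreat left 965 of those with OD. The causes were not tested. Depth limits MT1E, MT1G and SLC30A10, and the metallothioneins as a whole rest on 92 to 383 counts per library.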

Other observations

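Copper is the other metal that metallothioneins bind, and 7 genes of copper handling were all tested. With CoCl2, 3 were called higher and none lower by edgeR, beside 19.9% and 23.4% of all tested genes, and with upper-quartile factors or library size alone CCS became a call. Of these, the plasma membrane copper importer SLC31A1 rose from 83.4 to 92.7 CPM in control cells to 186 to 197, a log2 fold change of 1.11 (adjusted p = 3.46e-32). ATP7A, which pumps copper out of enterocytes, rose from 4.27 to 4.71 CPM to 13.9 to 14.2, a log2 fold change of 1.64 (adjusted p = 1.82e-21), and SLC31A2, with 4 to 9 counts per control library, rose by 1.15 (adjusted p = 0.00876). The calls of SLC31A1 and SLC31A2 were lost with library size alone, and that of SLC31A2 also with DESeq2 on 9 libraries (adjusted p = 0.0804) or 6 libraries (adjusted p = 0.125) and without control replicate 1 (0.92, adjusted p = 0.0563). ATP7B, the copper pump best known from liver, and CCS, the copper chaperone of superoxide dismutase, had -0.76 and -0.99 with CoCl2, under the fold threshold, and 0.28 and 0.19 with OD. The value of CCS with CoCl2 became a call in 8 of 19 refits and that of ATP7B with library size alone (-1.26). Both were called lower with CoCl2 than with OD, at -1.04 and -1.18, and the call of ATP7B was lost with RLE factors (-0.9965). With OD none of the 7 genes was called by edgeR, beside 9.09% of all tested genes called higher and 4.16% lower. In 6 of them the adjusted p, and hence the unadjusted p, was under 0.05 and the change was below the fold threshold. By the adjusted p alone 10466 of all 15944 tested genes were called with OD, so this count says nothing particular about the copper genes. SLC31A1 and ATP7A came nearest to the fold threshold at 0.92 and 0.81.

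Among other genes described as dependent on MTF1, GCLC, the catalytic subunit of the enzyme that limits glutathione synthesis, rose from 58.9 to 63.8 CPM in control cells to 235 to 248 with CoCl2, a log2 fold change of 1.96 (adjusted p = 7.69e-45), and had 0.23 with OD. PGF, which encodes placental growth factor, had 0.84 with CoCl2 and 0.96 with OD, both under the fold threshold. With SLC39A10, 1 of these 3 genes was called higher with CoCl2 and none lower, beside 19.9% and 23.4% of all tested genes. With OD none was called, beside 9.09% called higher and 4.16% lower. The part of MTF1 in these changes was not tested.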
